A study of Mus musculus with 6 samples.

Results

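Hemoglobin and erythroid genes were followed in the cochlea of *Cmah*-null mice and of WT controls. The 9 genes were Hba-a1, Hbb-b1, Hbb-b2, Alas2, Slc4a1, Klf1, Gata1, Ahsp and Car2, and their probes were found by gene symbol in the deposited annotation of the array. The array held 25697 probes for 18138 symbols. Of these, 10 probes carried the symbol of 8 of the 9 genes. Ahsp was not matched by its current symbol, and its older symbol Eraf had 1 probe, which is described with the others and counted separately. The mice were C57BL/6 by the sample records (C57BL/6J in the study's methods) and 12 months old. WT mice carried intact Cmah, and *Cmah*-null mice carried a knockout allele (Cmah tm1Ykoz) of the enzyme that makes N-glycolylneuraminic acid. Their sex was not given in the sample records. There were 3 samples of each genotype, with 1 Illumina MouseRef-8 v2 array each. For the arrays the study's methods name mice of both genotypes with n = 3 per group. The sample records do not say whether the 3 samples of a genotype came from separate mice, so the p-values measure the spread between these samples. The value table heads the *Cmah*-null columns with "old", a word absent from the sample records, so these columns were matched by replicate number.

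Red blood cells are made in the bone marrow, where erythroblasts switch on the globin genes under the transcription factors Gata1 and Klf1 and load the chains with heme. Alas2 starts heme synthesis in these cells, Ahsp holds free alpha-globin in a soluble form, Slc4a1 (band 3) exchanges chloride and bicarbonate across the red cell membrane, and Car2 (carbonic anhydrase II) interconverts carbon dioxide and bicarbonate. The cochlea lies in the temporal bone, which holds marrow, and it is fed by a rich capillary bed in the stria vascularis. Circulating reticulocytes keep globin RNA but have lost the nucleus, whereas Klf1 and Gata1 RNA belongs to nucleated precursors. Car2 is not particular to red cells and is also strong in osteoclasts, oligodendrocytes and several epithelia.

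The probes set limits on what can be read from the globins. Each is 50 bases long. The probes listed for Hbb-b1 (ILMN_1235372) and Hbb-b2 (ILMN_2729513) were nearly the same sequence. With an offset of 1 base they shared 49 positions and differed at 1 of them, T22G, counted from 1 at the 5′ end of the Hbb-b1 probe. The 25 bases around that position are shown 5′ to 3′, with the differing base in capitals, because they limit how far the signals can be assigned to either gene.
Hbb-b1: aaaaactgtcaaTtgtggggaaatg
Hbb-b2: aaaaactgtcaaGtgtggggaaatg
By its transcript accession the Hbb-b1 probe belongs to the gene that RefSeq now names Hbb-bt, on chromosome 7. The probes for Hba-a1 (ILMN_1212702), Alas2 (ILMN_2675874) and the detected Car2 probe (ILMN_2606746) start at positions 175, 1733 and 275 of their transcripts. They are shown since the results below turn on them, 5′ to 3′ and all in lower case.
Hba-a1: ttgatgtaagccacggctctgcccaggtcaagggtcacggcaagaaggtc
Alas2: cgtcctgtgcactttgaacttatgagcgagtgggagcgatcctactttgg
Car2: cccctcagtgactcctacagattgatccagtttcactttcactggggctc
Mouse alpha-globin is encoded by Hba-a1 and a near-identical copy, Hba-a2, so the Hba-a1 signal may hold RNA of both.

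All values are log2 signals after quantile normalization by the authors, which gives every array the same distribution. A probe was called detected at a detection p under 0.05, the scanner software's comparison with negative control beads. Genotypes were compared with limma over all 25697 probes, and a probe was called changed when it passed 1.5-fold and had an unadjusted p under 0.05, the rule of the study, or at a Benjamini-Hochberg adjusted p under 0.05. Of the 10 member probes, 7 were detected on all 6 arrays and 3 on 0 arrays. Eraf was detected on 6.

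The cochlear label was borne out for some defining markers only. Of 13 cochlear genes, 7 were detected on all arrays, among them Coch and Otos, while the outer hair cell motor Slc26a5, Tectb and Otor were detected on 0 arrays. Between 13873 and 15223 probes were detected per array. Each probe was read in the median by 34, 39 and 39 beads in WT and by 32, 32 and 38 in *Cmah*-null replicates 1, 2 and 3. The bead-number block used below parts WT replicate 1 and *Cmah*-null replicates 1 and 2, with fewer beads, from the other arrays. The arrays of *Cmah*-null replicates 1 and 2 were almost alike. Over the detected probes their log2 difference had an SD of 0.14, against 0.39 to 0.85 for all other pairs of arrays. The Cmah probe (ILMN_2606825) read 7.27, 7.28 and 7.87 in WT and 7.95, 7.98 and 7.27 in *Cmah*-null replicates 1, 2 and 3. It passed detection in 1 WT sample and 2 *Cmah*-null samples. These values are near background and did not separate the genotypes, and the position of the probe relative to the altered part of the gene was not determined, so genotypes are given as labelled.

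Of the members, 1 probe of 10, the detected probe of Car2, was called changed at 1.5-fold with an unadjusted p under 0.05, against 2.71% of all probes. It was lower in *Cmah*-null mice, against 1.41% of all probes in that direction. An unadjusted p under 0.05 alone was also reached by 1 probe of 10, against 8.56% of all probes. At an adjusted p under 0.05, 0 of 10 member probes were called by limma, as were 0.0% of all probes. The groups did not overlap for 1 of the 10, Hbb-b1, which was lower in *Cmah*-null mice, against 7.33% of all probes. The median log2 difference (*Cmah*-null minus WT) of the 7 detected member probes was -0.54, and 6 of the 7 were below 0. Over all 12410 probes detected on 6 arrays the median was 0.03, and 5822 were below 0. Fewer of the 7 were below 0 without WT replicate 2 and under median scaling. Without WT replicate 2 the members' median was -0.02, which was the value of Hba-a1, with 4 of 7 below 0. Hbb-b1 (-0.89), Hbb-b2 (-0.68) and Car2 (-0.58) stayed lower, while Alas2 (0.12), Klf1 (0.15) and Slc4a1 (0.68) were above 0. The members' median was -0.27, again with 4 of 7 below 0, when arrays were scaled to one median in place of the quantile step. Median scaling also moved the median of all detected probes, from 0.03 to 0.30, and the members' median stayed below it. With *Cmah*-null replicates 1 and 2 averaged to 1 sample, Hbb-b1 was called (log2 difference -1.22, unadjusted p = 0.0444) and Car2 was not (-0.95, unadjusted p = 0.0755).

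Hba-a1, the alpha chain of adult hemoglobin, was among the brightest probes of every array. Its log2 signal was 16.004, 16.024 and 16.039 in WT replicates 1, 2 and 3, and 16.004, 15.992 and 16.004 in *Cmah*-null replicates 1, 2 and 3. The 6 values were almost the same, and the groups overlapped. On no array did more than 4 probes exceed it, since its rank lay between 1 and 5. Its raw signal was 64369 to 68659, at least 96.7% of the highest signal of the same array. The deposited tables hold no saturation flag, and a signal this close to the top can hide a difference in RNA. The difference was -0.02 (SE 0.06, 95% interval -0.18 to 0.13), with an adjusted p of 0.938 by limma. Its SD within genotypes was 0.01.

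The adult beta-globin signals were below the top of the scale and moved between arrays. For Hbb-b1 the log2 signal was 12.87, 13.53 and 13.51 in WT replicates 1, 2 and 3, and 12.68, 12.78 and 11.43 in *Cmah*-null replicates 1, 2 and 3. All 3 *Cmah*-null samples lay below all 3 WT samples, although *Cmah*-null replicates 1 and 2 were close to WT replicate 1 and only replicate 3 stood far off. The WT mean was 13.30 ± 0.38 (SD, n = 3), and the *Cmah*-null mean 12.30 ± 0.75 (SD, n = 3). The log2 difference of -1.004 (SE 0.41, 95% interval -2.01 to 0.0015) did not pass, with an unadjusted p of 0.0502 and an adjusted p of 0.584 by limma. The separation of the groups depended on the quantile step. In raw signal Hbb-b1 read 7946, 9280 and 8102 in WT and 9544, 9081 and 2460 in *Cmah*-null replicates 1, 2 and 3, so that the highest of the 6 was a *Cmah*-null sample. Under median scaling the groups overlapped too, and the log2 difference was -0.52 with an unadjusted p of 0.297. Without *Cmah*-null replicate 3 the difference of the normalized values was -0.57, below 1.5-fold, with an unadjusted p of 0.0469 by limma. That fit held only the almost alike *Cmah*-null replicates 1 and 2.

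Hbb-b2, read by the probe that differs at the T22G position, gave 7.96, 9.85 and 9.09 in WT replicates 1, 2 and 3, and 8.03, 7.92 and 7.57 in *Cmah*-null replicates 1, 2 and 3. WT replicates 2 and 3 were high, WT replicate 1 was as low as the *Cmah*-null samples, and the groups overlapped. The log2 difference was -1.13 (SE 0.47, 95% interval -2.29 to 0.04), with an adjusted p of 0.595. Without WT replicate 2 it was -0.68, and without WT replicate 1 it was -1.63 with an unadjusted p of 0.00237. With the bead-number block it was -0.94 with an unadjusted p of 0.109 by limma.

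Alas2, the erythroid enzyme at the start of heme synthesis, showed no separation by genotype. Its log2 signal was 11.99, 13.35 and 12.73 in WT replicates 1, 2 and 3, and 12.28, 12.34 and 12.84 in *Cmah*-null replicates 1, 2 and 3. WT replicate 2 was the highest and WT replicate 1 the lowest of all 6, so the *Cmah*-null samples lay inside the WT range. The log2 difference was -0.20 (SE 0.36, 95% interval -1.10 to 0.69, adjusted p = 0.896). It became 0.12 without WT replicate 2 and 0.31 under median scaling.

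**Figure D1:**
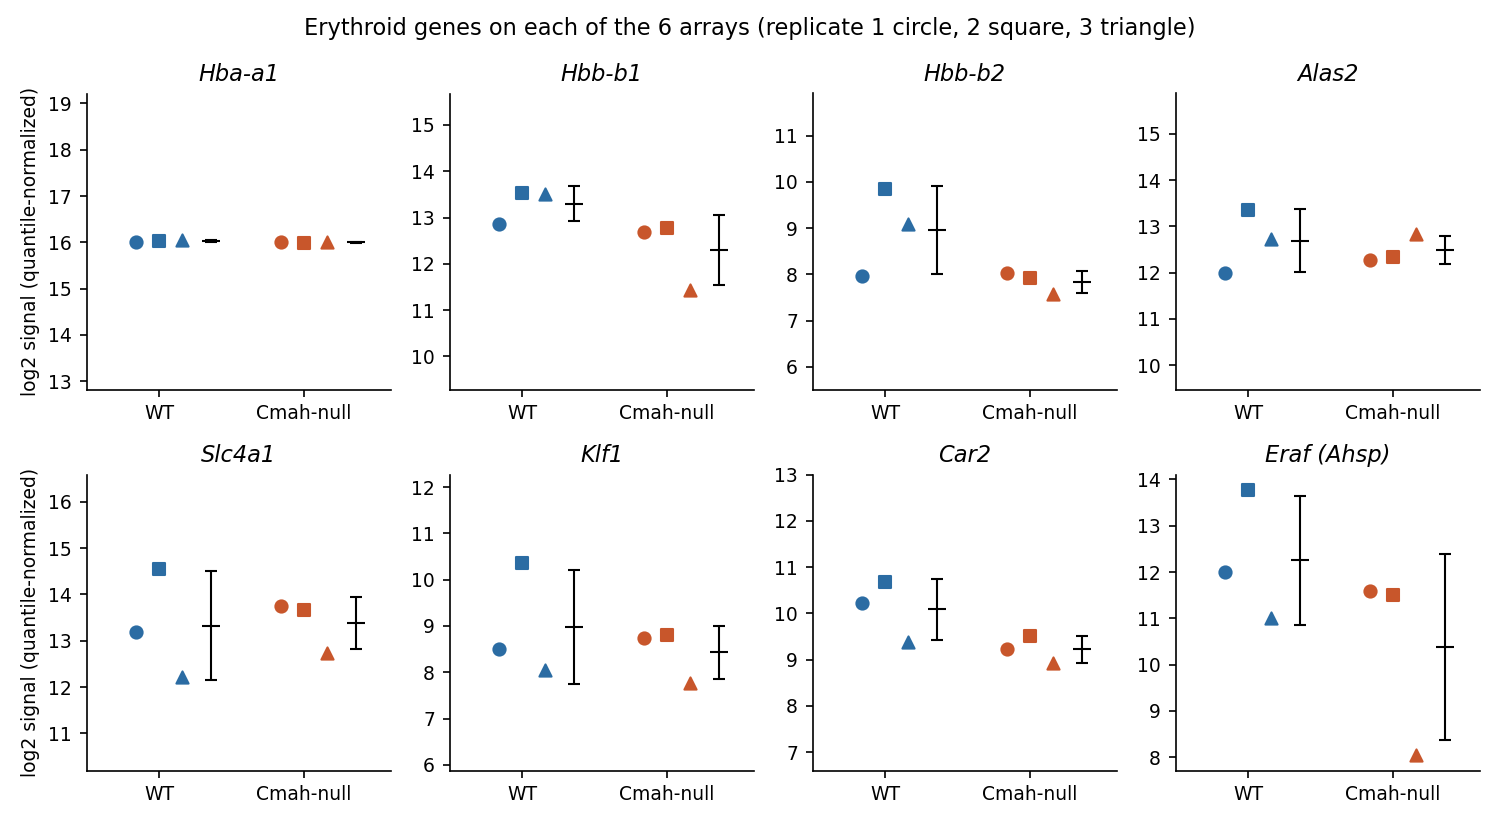
Log2 quantile-normalized signal of the 8 probes detected on 6 arrays, 1 panel per gene, each with a vertical axis of the same span. Points are arrays (circle, square and triangle for replicates 1, 2 and 3) and bars are the mean ± SD (n = 3). The WT replicate 2 square is the highest point in 7 of the 8 panels, and Hba-a1 hardly varies.

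Slc4a1 and Klf1 varied more within genotypes than between them. The anion exchanger Slc4a1 had log2 signals of 13.19, 14.56 and 12.22 in WT replicates 1, 2 and 3, and of 13.76, 13.67 and 12.73 in *Cmah*-null replicates 1, 2 and 3. The highest and the lowest sample were both WT, 5.05-fold apart. Its log2 difference was 0.06 (SE 0.63, 95% interval -1.49 to 1.61, adjusted p = 0.986), and it changed sign in 6 of the 15 alternatives run. Klf1, the transcription factor that activates adult beta-globin, gave 8.51, 10.37 and 8.05 in WT replicates 1, 2 and 3, and 8.73, 8.80 and 7.78 in *Cmah*-null replicates 1, 2 and 3. Again WT replicate 2 stood alone at the top and *Cmah*-null replicate 3 was the lowest. The log2 difference was -0.54 (SE 0.65, 95% interval -2.15 to 1.06, adjusted p = 0.838), and without WT replicate 2 it was 0.15.

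The widest spread of these probes belonged to Eraf, the array's name for Ahsp, the chaperone of alpha-globin. It read 12.00, 13.76 and 11.002 in WT replicates 1, 2 and 3, and 11.59, 11.50 and 8.05 in *Cmah*-null replicates 1, 2 and 3. The 52.3-fold distance from WT replicate 2 to *Cmah*-null replicate 3 came from the outermost array of each genotype, while the other 4 arrays overlapped. The log2 difference was -1.88 (SE 1.18, 95% interval -4.77 to 1.02), with an adjusted p of 0.699 by limma. It was -1.12 without WT replicate 2 and -0.71 without *Cmah*-null replicate 3.

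Gata1, which switches on most erythroid genes, was not detected on any array. Its probes ILMN_1237279 and ILMN_2935686 read 7.18 to 7.46 and 7.13 to 7.43 over the 6 arrays, within background, so no fold is given. Their lowest detection p values, 0.0627 and 0.0777, were both those of WT replicate 2.

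Car2 had 2 probes that disagreed. The probe at transcript position 1220 (ILMN_2603504) was not detected on any array and read 6.96 to 7.21. The probe at position 275 (ILMN_2606746) read 10.22, 10.68 and 9.38 in WT replicates 1, 2 and 3, and 9.24, 9.50 and 8.92 in *Cmah*-null replicates 1, 2 and 3. WT replicates 1 and 2 were above all *Cmah*-null samples, WT replicate 3 lay among them, and the groups overlapped. The WT mean was 10.09 ± 0.66 (SD, n = 3), and the *Cmah*-null mean 9.22 ± 0.29 (SD, n = 3). The log2 difference of -0.87 (SE 0.35, 95% interval -1.74 to -0.009), 1.83-fold lower in *Cmah*-null mice, had an unadjusted p of 0.0483 and an adjusted p of 0.580 by limma. It kept its direction in all 15 alternatives, from -1.23 to -0.53, and lost the call in 8 of them. Without WT replicate 2 it was -0.58 with an unadjusted p of 0.128, and under median scaling -0.53 with an unadjusted p of 0.247. Other cells rich in Car2 were present in the tissue. Of the osteoclast markers, 4 of 6 were detected on all arrays, Ctsk, Mmp9, Oscar and Acp5, and Calcr and Atp6v0d2 on none. Ctsk was called lower in *Cmah*-null mice by the 1.5-fold rule, 1 of 6 against 265 of the 18138 symbols. Its log2 difference was -0.65 (unadjusted p = 0.0317, adjusted p = 0.555 by limma). Those of Mmp9, Oscar and Acp5 were 0.05, 0.28 and -0.11, and these were not called. Of the myelin markers, 6 of 7 were detected on all arrays, with median log2 signals of 11.93 to 14.06 in WT and 12.13 to 12.32 in *Cmah*-null samples. Their part in the Car2 signal was not tested.

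**Figure D2:**
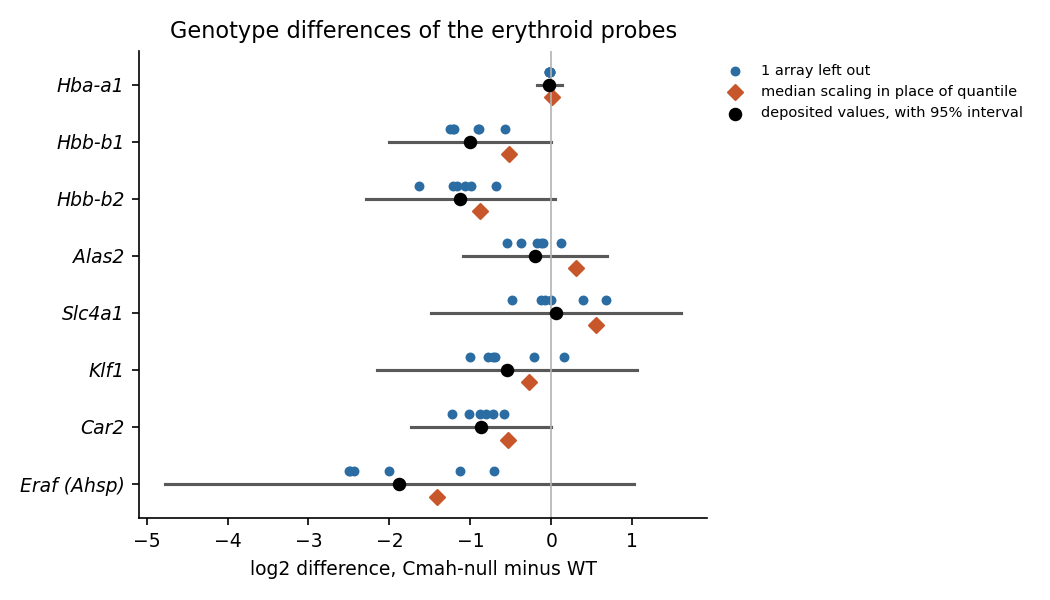
Log2 difference, *Cmah*-null minus WT, of the 8 detected probes (black point, with its 95% interval as a line). Blue points above each line are the same difference with 1 array left out, and the orange diamond below is that under median scaling. The Car2 interval ends just below 0, at -0.009, and the Eraf interval is the longest.

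The members followed individual samples more than genotype. WT replicate 2 gave the highest signal for 6 of the 7 detected member probes and for Eraf, the exception being Hba-a1, and *Cmah*-null replicate 3 gave the lowest for 4 of the 7 and for Eraf. Under median scaling WT replicate 2 was the highest for 5 of the 7, and in raw signal for 4. The SD within genotypes of these 8 probes had a median of 0.64 on the log2 scale, against 0.29 for the 12410 detected probes. For Eraf, Klf1 and Slc4a1 it was 1.73, 0.96 and 0.92, larger than for 99.96%, 98.8% and 98.4% of detected probes. The SD within genotypes exceeded the size of the genotype difference for Alas2, Klf1 and Slc4a1. It was below that size for Hba-a1, Hbb-b1, Hbb-b2, Car2 and Eraf. In bulk tissue, fewer red cells or precursors and less RNA per cell cannot be told apart.

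The members did not all follow the arrays alike. Over the 6 arrays, Pearson's r was 0.91 between Slc4a1 and Klf1, 0.85 between Klf1 and Eraf, 0.85 between Car2 and Eraf, and 0.81 between the Hbb-b1 and Hbb-b2 probes. Alas2 was apart from several of them, with r of 0.10 with Eraf, 0.17 with Hbb-b1 and 0.25 with Slc4a1. These values describe 6 arrays of 2 genotypes that share normalization, and no test was made. WT replicate 3 separated the sets. It was near the top for both beta-globin probes and below the mean of the arrays for Slc4a1, Klf1, Car2 and Eraf. In *Cmah*-null replicate 3 Alas2 was above its mean, whereas Eraf was at its lowest.

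**Figure D3:**
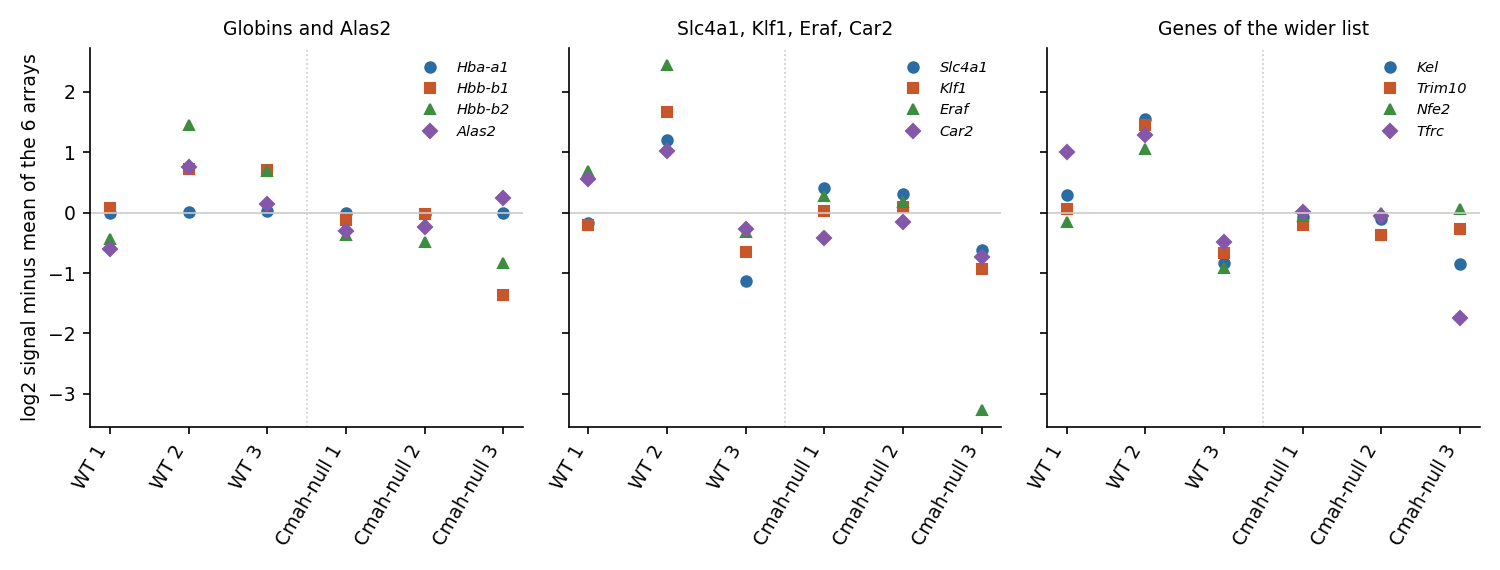
Log2 signal of each gene minus its mean over the 6 arrays, for the globins and Alas2 (left), Slc4a1, Klf1, Eraf and Car2 (middle) and 4 genes of the wider erythroid list chosen after their values were seen (right). The dotted line parts WT from *Cmah*-null samples. WT replicate 2 is above 0 for every gene plotted, and *Cmah*-null replicate 3 ranges from far below 0 for Eraf to above 0 for Alas2.

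A wider list of 58 erythroid genes on the array placed the members among their pathway. Of these, 38 were detected on all 6 arrays and 11 on 0. By the 1.5-fold rule 1 of the 58 was called, Cd59a, against 3.07% of the 18138 symbols, and 0 were called at an adjusted p under 0.05 by limma, with 2 at an unadjusted p under 0.05. The median log2 difference of the 38 was -0.20, with 27 lower and 11 higher in *Cmah*-null mice, against a median of 0.04 over the 9907 symbols detected on 6 arrays, of which 4446 were lower. Without WT replicate 2 the list's median was -0.03, with 20 lower and 18 higher. Under median scaling it was 0.14, with 13 lower and 25 higher, against 0.34 for all symbols. Cd59a, which shields cells from complement and is found on red cells and many other cells, read 12.69, 12.28 and 11.89 in WT replicates 1, 2 and 3, and 11.68, 11.68 and 11.24 in *Cmah*-null replicates 1, 2 and 3. Its groups did not overlap, and its log2 difference was -0.75 (SE 0.23, unadjusted p = 0.0194, adjusted p = 0.525).

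Sorted by role, none of the groups of the list was called beyond that gene. Of 14 genes of heme synthesis and iron, 9 were detected on all arrays, with a median log2 difference of -0.38 and 7 of 9 lower. Alad, the enzyme after Alas2 in the pathway, read 12.50, 13.41 and 12.78 in WT and 12.38, 12.41 and 12.37 in *Cmah*-null replicates 1, 2 and 3. The *Cmah*-null samples were nearly equal and below all WT samples, with a log2 difference of -0.51 (SE 0.23, unadjusted p = 0.0705, adjusted p = 0.618). Other enzymes of the pathway lay in the same direction without passing, at -0.73 for Urod (adjusted p = 0.715), -0.54 for Uros (adjusted p = 0.65) and -0.38 for Ppox (adjusted p = 0.623). For Urod and Uros *Cmah*-null replicate 3 stood furthest off. Urod read 13.40, 13.38 and 11.69 in *Cmah*-null replicates 1, 2 and 3 (WT 13.42 to 13.76), and Uros 9.66, 9.47 and 8.71 (WT 9.62 to 10.12). Cpox, a mitochondrial enzyme of the pathway detected on 5 arrays, was the only one of these enzymes with all *Cmah*-null samples above all WT samples. It read 7.56, 7.57 and 7.41 in WT and 7.73, 7.71 and 8.0 in *Cmah*-null replicates 1, 2 and 3, a log2 difference of 0.30 (unadjusted p = 0.0357, adjusted p = 0.569), below 1.5-fold. Tfrc, the transferrin receptor that brings iron into the cell, read 12.54, 12.82 and 11.05 in WT and 11.55, 11.48 and 9.79 in *Cmah*-null replicates 1, 2 and 3, and its groups overlapped.

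Of 17 membrane and cytoskeleton genes, 12 were detected on all arrays, with a median log2 difference of -0.10. Spnb1 (beta-spectrin), a brighter gene of the group, was higher in all *Cmah*-null samples, at 12.73, 12.76 and 12.75 in WT and 12.88, 12.86 and 13.84 in *Cmah*-null replicates 1, 2 and 3. Its log2 difference of 0.44 (SE 0.28, adjusted p = 0.698) came mostly from *Cmah*-null replicate 3. All *Cmah*-null samples lay above all WT samples for 1423 of the 12410 probes detected on 6 arrays. The water channel Aqp1, found on red cells and on other cells of the ear, hardly varied (log2 difference -0.06, SE 0.13, adjusted p = 0.917).

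Of 8 genes for erythroid transcription factors and the erythropoietin receptor, 6 were detected on all arrays, with a median log2 difference of -0.15. Ldb1, which bridges enhancers and promoters with Gata1 complexes, differed by -0.19 (SE 0.11, adjusted p = 0.666). Bcl11a, a repressor of embryonic beta-like globins that is also made by neurons and B cells, read 8.80, 9.15 and 9.13 in WT and 9.39, 9.55 and 10.75 in *Cmah*-null replicates 1, 2 and 3, without overlap. Its log2 difference was 0.87 (SE 0.37, unadjusted p = 0.0598, adjusted p = 0.601). Groups without overlap and higher in *Cmah*-null samples were seen for 1423 of the 12410 probes detected on 6 arrays. Of 4 other globins, none was detected on all arrays. The embryonic genes Hba-x, Hbb-bh1 and Hbb-y were detected on 0 arrays, and Hbq1 on 5. Of 15 red cell enzymes and late erythroid genes, Eraf among them, 11 were detected on all arrays, with a median log2 difference of -0.46. Prdx2, an abundant peroxidase of red cells that other tissues share, differed by -0.65 (SE 0.35, adjusted p = 0.664). It read 12.82, 13.01 and 11.70 in *Cmah*-null replicates 1, 2 and 3, against 12.99 to 13.33 in WT, so replicate 3 stood furthest off.

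With the deposited values, the sample that led the members also led the wider list. Of its 38 detected genes, 23 (60.5%) had their highest signal in WT replicate 2, against 11.01% of all 9907 detected symbols. The share was 7 of 9 for heme synthesis and iron, 6 of 12 for membrane and cytoskeleton, 4 of 6 for transcription factors and receptor, and 6 of 11 for enzymes and late genes. Under median scaling it was 23.7% for the list, against 3.3% of all symbols, and in raw signal 26.3%, against 3.3%. On those scales *Cmah*-null replicate 1 was the highest for more genes of the list, 31.6% under median scaling and 36.8% in raw signal, as it was for 39.1% and 52.1% of all symbols. *Cmah*-null replicate 3 gave the lowest signal for 15 genes (39.5%), against 30.9% of all symbols.

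**Figure D4:**
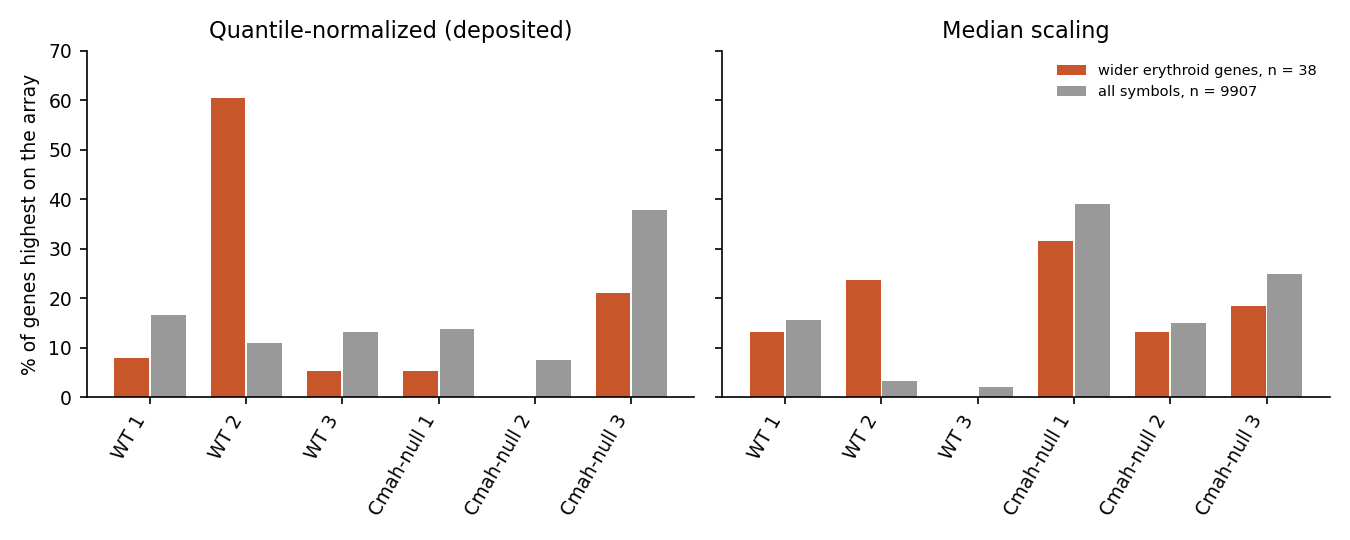
Share (%) of the 38 detected genes of the wider erythroid list (orange) and of all 9907 detected symbols (grey) that had their highest signal on each array, with the deposited values (left) and under median scaling (right). The orange bar of WT replicate 2 stands at 60.5% on the left and 23.7% on the right, above the grey bar of the same array on both sides. On the right the tallest orange bar is that of *Cmah*-null replicate 1, at 31.6%, below its grey bar.

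Some genes outside the list had profiles close to those of the members, by Pearson's r over the 6 arrays among 4781 probes that spanned at least 1 log2 unit. The mean profile of the 3 globin probes, -0.13, 0.73 and 0.47 in WT and -0.17, -0.17 and -0.74 in *Cmah*-null replicates 1, 2 and 3, was most like those of Hspe1 (r = 0.996), 1810035L17Rik, Mrpl20, Vps29, Rg9mtd1, Mospd1, LOC100041500 and Akr1e1 (r = 0.981). Hba-a1 spanned only 0.05 log2 units over the arrays, so this profile is mainly that of the near-identical Hbb-b1 and Hbb-b2 probes. Among the 4781 probes, 92 (1.92%) had r over 0.9 with this profile. The mean profile of Slc4a1, Klf1 and Eraf, a set chosen after their values were seen, ran 0.11, 1.77 and -0.70 in WT and 0.23, 0.20 and -1.61 in *Cmah*-null replicates 1, 2 and 3. It was most like those of Prc1 (r = 0.986), Klhl6, Chi3l3, Myl4, Tk1, 1300017J02Rik, Ctse and Hist1h2ao (r = 0.960), and 45 probes (0.94%) had r over 0.9. Prc1 acts in cell division, Tk1 makes thymidine phosphate for DNA synthesis, and Ctse is an aspartic protease known in erythrocytes and stomach. In WT replicates 1, 2 and 3 Prc1 read 9.85, 11.07 and 9.46, and in *Cmah*-null replicates 1, 2 and 3 10.18, 10.11 and 9.11.

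Markers of other blood and marrow cells moved along the same samples in part. Of 8 cell cycle genes, 4 were detected on all arrays and all 4 were highest in WT replicate 2, where their list's median log2 signal was 9.48 against 8.17 to 8.52 on the other arrays. Cdc20, Birc5 and Tyms were the brightest, Ccnb2 was at background on all arrays, and the summed raw signal was 1821 to 3687 in WT and 1960 to 2786 in *Cmah*-null samples. Of 10 neutrophil and marrow granule genes, all 10 were detected on all arrays and 4 were highest in WT replicate 2. Their median log2 signal was 10.29, 11.38 and 9.91 in WT and 11.40, 11.36 and 10.95 in *Cmah*-null replicates 1, 2 and 3, and their summed raw signal was 73880 to 99534 and 82164 to 118634. The brightest of them were Ltf, S100a9 and S100a8, with Ltf close to the top of the scale like Hba-a1. S100a9 read 12.83, 14.08 and 12.63 in WT and 13.67, 13.56 and 12.22 in *Cmah*-null replicates 1, 2 and 3, which is also high in WT replicate 2 and low in *Cmah*-null replicate 3. Mpo, Prtn3 and Ela2 were instead highest in *Cmah*-null replicate 3, at 12.42, 10.91 and 9.62.

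Platelet genes were low where most members were high. All 5 were detected on all arrays and all 5 were lowest in WT replicate 2, where their median log2 signal was 7.91, against 8.77 and 8.80 in WT replicates 1 and 3 and 9.07 to 9.19 in *Cmah*-null samples. Gp5 (log2 difference 0.88, adjusted p = 0.492), Itga2b (0.70, adjusted p = 0.489) and Gp1bb (0.59, adjusted p = 0.528) were called higher in *Cmah*-null mice by the 1.5-fold rule, 3 of 5 against 1.61% of all symbols called in that direction. Ppbp (0.87, adjusted p = 0.794) and Gp9 (0.03, adjusted p = 0.958 by limma) were not. The summed raw signal of the platelet genes was 1180 to 2609 in WT and 2212 to 4529 in *Cmah*-null samples. Of 5 B cell genes, 3 were detected on all arrays, Vpreb3, Cd79b and Vpreb1, and 2 of them were highest in WT replicate 2, with Ms4a1 at background on all arrays. The summed raw signal of the B cell genes was 1183 to 1912 in WT and 1536 to 1693 in *Cmah*-null samples. Of 7 leukocyte genes, 6 were detected, with Lyz, Lyz1 and Lyz2 the brightest and Ptprc at background on all arrays. Laptm5 was called higher (log2 difference 0.87, adjusted p = 0.559 by limma), 1 of 7 against 1.61% of all symbols called in that direction. Bone genes (Bglap1, Bglap2 and others) were highest in WT replicate 2 for 5 of 6 detected genes, and skeletal muscle genes for 4 of 6. All 3 brown fat genes were called lower in *Cmah*-null mice, against 265 of the 18138 symbols. Their log2 differences were -2.11 for Ucp1, -2.01 for Cidea and -1.44 for Cox8b, with adjusted p values of 0.433, 0.397 and 0.551 by limma. The part of these tissues in the erythroid values was not tested.

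Promoters were available for several of the members by symbol or accession. The 250 bases before the RefSeq start are shown for 4 genes whose signals are given above, on build GRCm38.p6 and in the direction of the gene. Capitals mark matches to a GATA factor site (A or T, then GATA, then A or G) or to CCNCNCCC, the CACCC type of site that Klf1 binds, on either strand.
Hba-a1 (chr11:32283422-32283671, plus strand): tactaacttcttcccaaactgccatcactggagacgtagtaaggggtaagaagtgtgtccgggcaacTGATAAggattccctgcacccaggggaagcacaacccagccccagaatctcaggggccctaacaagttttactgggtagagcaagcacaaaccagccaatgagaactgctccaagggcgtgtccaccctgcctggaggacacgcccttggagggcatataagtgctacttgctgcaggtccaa
Hbb-bt, the gene of the Hbb-b1 probe (chr7:103813924-103814173, minus strand): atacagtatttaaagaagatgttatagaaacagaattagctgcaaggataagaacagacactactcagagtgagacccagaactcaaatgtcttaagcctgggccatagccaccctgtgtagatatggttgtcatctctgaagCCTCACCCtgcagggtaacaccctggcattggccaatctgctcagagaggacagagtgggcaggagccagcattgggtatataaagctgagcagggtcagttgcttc
Alas2 (chrX:150547167-150547416, plus strand): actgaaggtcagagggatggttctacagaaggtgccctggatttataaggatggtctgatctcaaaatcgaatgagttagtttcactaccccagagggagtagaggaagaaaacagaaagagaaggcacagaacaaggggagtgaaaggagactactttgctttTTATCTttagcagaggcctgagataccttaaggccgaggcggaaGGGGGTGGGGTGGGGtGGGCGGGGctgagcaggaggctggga
Klf1 (chr8:84901732-84901981, plus strand): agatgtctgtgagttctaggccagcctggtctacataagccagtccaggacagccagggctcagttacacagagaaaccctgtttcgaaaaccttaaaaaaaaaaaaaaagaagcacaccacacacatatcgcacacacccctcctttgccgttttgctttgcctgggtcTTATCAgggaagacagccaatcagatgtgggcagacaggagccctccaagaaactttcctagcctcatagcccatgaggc
With Gata1 added, 3 of the 5 promoters held a GATA match (Hba-a1, Alas2 and Klf1), against 26.5% of 32851 promoters of the same length. CCNCNCCC was matched in 3 of 5 (Hbb-bt, Alas2 and Gata1), against 45.9% of all, and the stricter CCACACCC, which lies within it, in 0 of 5, against 3.2%. Hbb-bs, another beta-globin gene and not among these 5, had CCACACCC at 93 to 86 bases before its start. It also had a GATA match, AGATAA, at 210 to 205 bases before the start. A CCAAT box was matched in 3 of 5 (Hba-a1, Hbb-bt and Klf1), against 33.9%, and TATAAA or ATAAAA in 2 of 5 (Hbb-bt and Alas2), against 22.8%. The NF-E2 type of site, TGAGTCA or TGACTCA, was matched in 0 of 5, against 4.5% of all. The GATA match of Hba-a1 lay 183 to 178 bases before the start, that of Alas2 86 to 81, and that of Klf1 80 to 75. The Alas2 GATA match overlaps an ATAAAA match at 88 to 83 bases before the start. A match describes letters in the window and is no measurement of binding.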

How the data were processed

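RNA of 3 *Cmah*-null and 3 WT cochlear samples was hybridized, with 1 array each. Per the file headers, the deposited raw table held intensity values (average bead signals, neither normalized nor background-subtracted), bead errors, bead numbers and a detection p-value per probe. The authors' second table held normalized values on the log2 scale, equal to the quantile-normalized log2 of the raw signals to within 5e-07. Another 12 columns of it repeat the raw values and were not used, nor were its fold changes and p-values of the authors' own comparison. Genotypes were compared on the log2 values of all probes by lmFit and eBayes of limma (3.58.1, in R 4.3.3) without covariates, and p-values were two-sided and adjusted by Benjamini-Hochberg. The test was checked on simulated data. Intervals are at 95% and use 5.82 degrees of freedom. For the wider list, the brightest probe of each symbol was used. Named are all member probes, the 6 genes of the wider list with the smallest p, its 6 brightest, the brightest marker genes of blood and marrow lists and the 8 closest profiles. Tfrc, Mpo, Prtn3, Ela2 and the wider-list genes of the profile plot were chosen after their values were seen. Of the wider list, Urod, Spnb1, Aqp1, Ldb1, Prdx2 and Alad were the brightest. The members and lists were chosen with earlier results of these data known. Alternatives were neqc (offset 16), median scaling, normexp (offset 50), a detection filter (at least 3 arrays), a replicate block, a bead-number block, each array left out, an ordinary test per probe, a prior with trend and robust, averaging *Cmah*-null replicates 1 and 2, and every probe of a symbol. Promoters are from RefSeq (GRCm38.p6), found by symbol for 4 of 9 members and for Hbb-bt by accession. The number of arrays limits the precision. Python 3.11.15 and matplotlib 3.10.9 drew the figures.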

Additional observations from a re-analysis of the deposited data

How the results depend on the processing

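At an adjusted p under 0.05, 0 member probes were called under each of the 15 alternatives. By the 1.5-fold rule, 1 member probe was called with the deposited values. The count was 2 with neqc, 3 with normexp, 3 with the filter on detection, 3 with the prior with trend and robust, and 0 with the ordinary test. It ranged from 0 to 2 with 1 array left out, and was 0 when WT replicate 2 or either of *Cmah*-null replicates 1 and 3 was left out. It stayed 1 under median scaling, where the probe called was Hbb-b2 in place of Car2. For the wider list, 1 gene was called with the deposited values, 2 with neqc, normexp, the prior with trend and robust or averaging of *Cmah*-null replicates 1 and 2, 3 under median scaling, 5 with the bead-number block, and 0 with the ordinary test. It ranged from 0 to 4 with 1 array left out. With the replicate block, 1 member probe was called and 4 wider genes (Bcl11a, Cd59a, Eraf and Tfrc). The deviations of same-numbered samples correlated at 0.02, -0.17 and 0.01, so the numbers were not taken to pair the samples. Log2 differences that changed sign were those of Hba-a1 (0.0032 under median scaling), Alas2 (0.31 under median scaling, 0.059 with the bead-number block, -0.55 to 0.12 with 1 array left out, the highest without WT replicate 2), Klf1 (-1.005 to 0.15 with 1 array left out, the highest again without WT replicate 2) and Slc4a1 (-0.069 with the bead-number block, -0.10 with averaging, and -0.49 to 0.68 with 1 array left out). Median scaling also moved the median of all detected probes to 0.30. The cause of the sign changes was not tested. Hba-a1 was at the top of the scale, and Gata1 and 1 Car2 probe were at background.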
